A study of Homo sapiens with 30 samples.

Results

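MBD3-only regions are stretches of the genome that were called with the MBD3 antibody and with none of the antibodies against CTCF, TET1 and TET2 in HEK293T cells kept without auxin. They were found by joining, within each peak list without auxin, the rows that shared at least 1 bp, and by taking the MBD3 regions that shared no base with a CTCF, TET1 or TET2 region. This left 2335 of the 6608 MBD3 regions, or 35.3% (Wilson 95% interval 34.2% to 36.5%). The other 4273 MBD3 regions comprise 3727 at CTCF and 546 that shared a base with TET1 or TET2 but not with CTCF. All 8 lists together held 70565 regions. The regions were thus chosen by measured values, presence or absence in the lists without auxin, and their strength, width and position in those lists are given as a description, with no test. Of the 2335, 5 lay outside chromosomes 1 to 22 and X. The lists with auxin were not used in the choice.

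HEK293T is an established line of human embryonic kidney cells. The cells had been edited at CTCF for auxin-inducible degradation and co-transfected with plasmids for ScFv-miniIAA7-mEGFP and AtAFB2-mCherry, which supply the parts of the degradation system. The cells then received indole-3-acetic acid (IAA), the auxin used here, at 0.5 mM for 72 h, or had medium lacking it for the same time, which 1 label field names as DMSO. Edit and plasmids are common to both groups, so neither is an unmodified HEK293T culture, and the labels do not say whether the edited cells were 1 clone. Chromatin immunoprecipitation with sequencing (ChIP-seq) was done for CTCF, MBD3, TET1 and TET2, with 3 samples per antibody and condition and 3 inputs per condition, 30 samples in 10 groups. The authors pooled the 3 samples before calling peaks, so each of the 8 lists is 1 value per condition, with no replicate error and no test across cultures, and the number of reads behind it is unknown.

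MBD3 belongs to NuRD, the nucleosome remodelling and deacetylase complex, which couples an ATP-dependent chromatin remodeller to histone deacetylases and takes part in gene repression and in tuning enhancers. Despite its methyl-CpG-binding domain, mammalian MBD3 binds methylated DNA poorly, and NuRD reaches DNA largely through other proteins. CTCF binds DNA through zinc fingers and holds the bases of chromatin loops, and TET1 and TET2 oxidise 5-methylcytosine.

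MBD3-only regions were the weaker part of the MBD3 list. Their fold enrichment, the ratio of ChIP to control signal computed by the authors' peak caller, had a median of 4.87 (quartiles 4.13 and 5.61). The median was 5.35 (4.40 and 6.28) for MBD3 regions with TET1 or TET2 but not CTCF, and 5.91 (4.85 and 7.19) for MBD3 regions at CTCF. The confidence of the calls differed more than the fold: the median −log10 q was 3.26 (2.36 and 4.94) for MBD3-only regions, 4.50 (3.26 and 7.32) for those with TET1, TET2 or both but not CTCF and 6.89 (4.38 and 9.87) at CTCF. A −log10 q of at least 5 was reached by 24.3% of MBD3-only regions (22.6% to 26.1%) and by 67.1% (65.7% to 68.5%) of the other MBD3 regions. At 10 or more the shares were 2.48% (1.93% to 3.20%) and 22.3% (21.1% to 23.6%).

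The share of MBD3-only regions declined with the strength of the MBD3 region, though not from the very bottom of the list by fold. When the MBD3 list was cut into 10 equal parts by fold, MBD3-only regions made up 45.2% of the weakest part, 56.7% of part 3, 37.1% of part 6 and 8.48% (6.59% to 10.9%) of the strongest. By −log10 q the order was complete, from 69.3% (65.7% to 72.7%) in the weakest part to 3.48% (2.33% to 5.17%) in the strongest. Of MBD3 regions with TET1 or TET2 and no CTCF, 7.51% had a fold under 3, against 0.557% of MBD3-only regions.

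**Figure D1:**
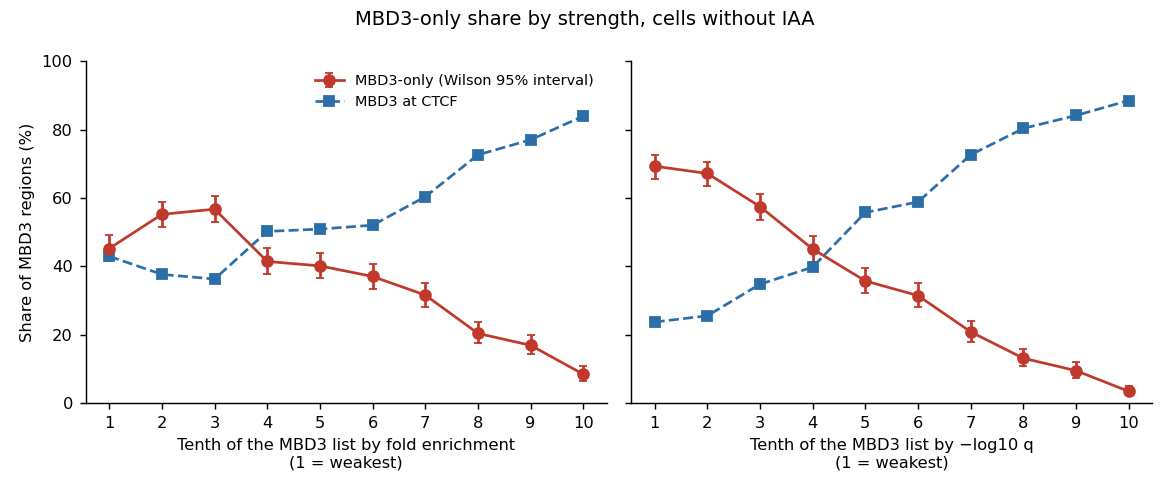
Share of MBD3 regions without IAA (vertical axis, percent) that were MBD3-only (red, with Wilson 95% intervals) or at CTCF (blue) in 10 equal parts of the MBD3 list, ordered from weakest to strongest by fold enrichment (left) and by −log10 q (right). The MBD3-only share is 69.3% in the weakest and 3.48% in the strongest part by −log10 q.

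MBD3 regions away from CTCF were mostly without TET1 and TET2. Of the 2881 MBD3 regions away from CTCF, 81.0% (79.6% to 82.4%) were MBD3-only, 280 were called with TET1 alone, 145 with TET2 alone and 121 with both. The median fold was 5.31 with TET1 alone, 5.61 with TET2 alone and 4.96 with both. At CTCF the 328 MBD3 regions without TET1 and TET2 had a median fold of 5.05 and a median −log10 q of 3.96, closer to MBD3-only regions than to the 3247 that carried CTCF and TET1, at 6.05 and 7.17.

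Many MBD3-only regions shared exactly the same fold value. The 2335 regions held 621 distinct values, and the 5 commonest, 3.93, 4.49, 5.05, 5.61 and 6.17, covered 704 regions, or 30.1%, against 8.45% of the other MBD3 regions. These 5 values were the multiples 7, 8, 9, 10 and 11 of 0.561. Whole multiples of that spacing, within 0.001, made up 37.0% (35.1% to 39.0%) of MBD3-only regions, 28.9% (25.3% to 32.9%) of MBD3 regions with TET1, TET2 or both but not CTCF and 15.1% (14.0% to 16.3%) of those at CTCF. Along the 5 values the median −log10 q was 1.55, 2.36, 3.26, 4.22 and 5.20, so 1 step of fold separated a call at the edge of the list from a firmer one. The number of fragments behind a step was not derived here.

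The strongest MBD3-only regions stood well inside the upper part of the list but below its top. By fold, the first lay at chr7:84951591-84951932 (all coordinates are hg19, counted from 1), at 11.8-fold and rank 27 of 6608, with a −log10 q of 17.1. Its summit was 130911 bp from the nearest CTCF summit and 2186 bp from another MBD3-only summit. The next were chr10:29565167-29565763 at 11.1-fold, chr4:182682365-182682633 at 10.7-fold, chr18:22140371-22140675 at 10.5-fold and chr13:67377183-67377584 at 10.1-fold. Their nearest CTCF summits lay 21933, 72760, 16262 and 32313 bp away. Only 7 MBD3-only regions, or 0.300%, had a fold of at least 10, against 137, or 3.21%, of the other MBD3 regions.

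Ranked by −log10 q, 2 regions of low fold came first on chromosomes 1 to 22 and X. They lay at chrX:61718949-61719099 and chrX:61711234-61711386 with −log10 q of 18.5 and 17.8 at folds of 2.67 and 2.20. They ranked 6542 and 6560 of 6608 by fold. A TET1 summit stood 314 and 591 bp from them. The regions on chromosome 10 and 7 named above and chr12:10574841-10575132, at 8.85-fold and a −log10 q of 17.4, followed. In all 13 MBD3-only regions had a fold under 3, among them 3 on chromosome 1, 3 on X and 2 on the sequence chr9_gl000199_random. Their median −log10 q was 3.75 (highest 19.8, outside chromosomes 1 to 22 and X), against 3.26 (highest 17.4) for MBD3-only regions with a fold of at least 3.

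MBD3-only regions were short, as were most MBD3 regions. Their median width was 198 bp (quartiles 168 and 255), against 250.5 bp (197 and 333) for MBD3 regions with TET1, TET2 or both but not CTCF and 180 bp (162 and 214) for those at CTCF. Wide regions can touch other lists more easily, so width bears on the choice itself. At least 400 bp was reached by 110 MBD3-only regions, or 4.71% (3.92% to 5.65%), against 13.4% (10.8% to 16.5%) of those with TET1, TET2 or both but not CTCF and 2.31% (1.87% to 2.84%) at CTCF. Joining mattered little, since 34 of the 2335 came from more than 1 row. Width went with strength: in 3 equal groups of MBD3-only regions by fold the median width was 189 bp in the weakest, 191 bp in the middle and 215 bp in the strongest group. The share of at least 400 bp was 1.93%, 3.60% and 8.61% in the same order. The widest, chr5:88578035-88578849, spanned 815 bp at 5.61-fold, followed by chr6:89849011-89849755 with 745 bp at 3.95-fold and chr10:26813082-26813806 with 725 bp at 5.89-fold.

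**Figure D2:**
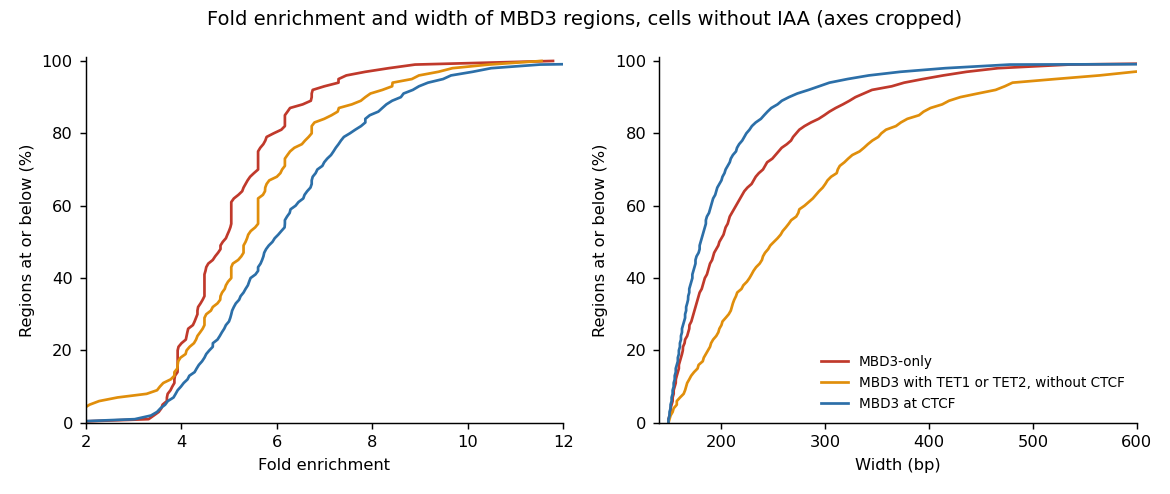
Percent of MBD3 regions without IAA at or below a given fold enrichment (left) and width in bp (right), for MBD3-only regions (red), MBD3 regions with TET1 or TET2 but not CTCF (orange) and MBD3 regions at CTCF (blue), with axes cropped. The medians are 4.87, 5.35 and 5.91 for fold and 198, 250.5 and 180 bp for width, and the vertical steps in the red fold curve are the repeated values.

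Most MBD3-only regions stood alone, and a minority came in close pairs. The median distance between the summit of one and the nearest other was 148808 bp, against 143830 bp among MBD3 regions at CTCF, 486155 bp among TET1-only regions (965) and 1126040 bp among TET2-only regions (503). The longer distances of the last classes go with their smaller numbers. Another MBD3-only summit lay within 10 kb of 356 regions, or 15.2% (13.8% to 16.8%). For MBD3 at CTCF, the more numerous class, this share was 8.32% (7.47% to 9.25%), and for MBD3 with TET1, TET2 or both but not CTCF, a smaller class, it was 13.9% (11.3% to 17.1%), with an interval that overlaps that of MBD3-only regions. With every list limited to a −log10 q of at least 5, which gave 754 MBD3-only regions, the MBD3-only share was 7.16% (5.53% to 9.23%). The other classes were not counted under that filter, so this value cannot be set against their shares. Within 1 kb the shares of MBD3-only regions and of MBD3 at CTCF were 3.30% (2.65% to 4.10%) and 0.912% (0.654% to 1.27%). For MBD3 with TET1, TET2 or both but not CTCF the share was 3.66% (2.38% to 5.59%), which overlaps the MBD3-only interval. Within 100 kb the shares were 42.7% (40.7% to 44.7%), 40.2% (38.7% to 41.8%) and 29.5% (25.8% to 33.4%) in that order. Of all MBD3 regions, a larger group that includes the MBD3-only regions, 3.34% had another MBD3 region within 1 kb and 17.1% within 10 kb. An MBD3 region of another class was within 10 kb of 8.87% of MBD3-only regions.

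The 356 regions with a close neighbour fell into 168 runs in which each summit was within 10 kb of the next. Of these, 152 were pairs, 13 held 3 regions, 2 held 4 and 1 held 5. The run of 5 covered 5306 bp at chr10:15834256-15839561, with folds of 5.05 to 7.86 and its nearest CTCF summit 27224 bp off. The runs of 4 lay at chr1:85293302-85301194, with folds of 5.31 to 5.61, and at chr1:229357010-229367461, with folds of 3.08 to 4.74. The second of these had a CTCF summit 373 bp from its nearest member, so close groups occurred both near CTCF and far from it. Among all MBD3-only regions, the neighbour being of any strength, pairing was similar across folds: 14.9%, 15.4% and 15.4% of the weakest, middle and strongest of the 3 groups by fold had another within 10 kb.

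At the scale of 1 Mb, 1 window stood out. It spans chr13:67000001-68000000 and held 27 MBD3-only regions, while the next windows held 13 (chr10:15000001-16000000 and chr14:68000001-69000000), 12 (chr13:72000001-73000000) and 11 (chr5:124000001-125000000). Among the 1141 windows with at least 1 MBD3-only region, 569 held exactly 1 and 81 held 5 or more. Those 81 took 513 of all MBD3-only regions. In the first window the folds ran from 3.08 to 10.1 with a median of 4.59, CTCF summits were a median of 14057 bp away, and the strongest member was chr13:67377183-67377584. That window was also dense for TET1, with 23 TET1-only regions among 36 TET1 regions, and it held 27 CTCF, 9 TET2 and 40 MBD3 regions, 7 of the last at CTCF. Over the whole genome the lists with IAA held 63 CTCF, 50 MBD3, 325 TET1 and 3022 TET2 regions. Counts of 0 for the first 3 are thus not particular to 1 window. With IAA the same window held 0 CTCF, 0 MBD3 and 0 TET1 regions and 1 TET2 region. With its neighbours on both sides it made up 42 of the 158 MBD3-only regions on chromosome 13. The strongest members of the next 4 windows were chr10:15838911-15839103 at 7.86-fold, chr14:68571244-68571634 at 8.42-fold, chr13:72091214-72091433 at 6.73-fold and chr5:124610025-124610186 at 6.73-fold.

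Chromosomes differed widely in how much of their MBD3 was MBD3-only. The share was highest on chromosome 13, at 50.8% of 311 MBD3 regions (45.3% to 56.3%), followed by 49.6% on chromosome 18 and 45.4% on chromosome 4. It was lowest on chromosome 19, at 9.83% of 173 (6.23% to 15.2%), then 13.6% on chromosome 16 and 15.1% on chromosome 15. On 8 chromosomes (3, 4, 5, 6, 7, 10, 13 and 18) the whole interval lay above the 35.3% of the full list, and on 9 (1, 11, 15, 16, 17, 19, 20, 22 and X) it lay below. These groups were picked by that share, so the figures that follow restate the choice. The 8 held 58.5% of MBD3-only regions, against 39.4% of the other MBD3 regions, 36.1% of CTCF regions and 40.5% of the listed span. In numbers, chromosome 6 had the most, with 241, then chromosome 10 with 238 and chromosome 1 with 226. Per 10 Mb of listed span, chromosome 10 had 17.6, chromosome 6 had 14.1 and chromosome 13 had 13.7, while chromosome 16 had 1.88, chromosome 22 had 2.15 and chromosome X had 2.19. The listed span is the highest end position on the chromosome in any list. It thus counts stretches without any listed region, and the order per 10 Mb depends on it.

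**Figure D3:**
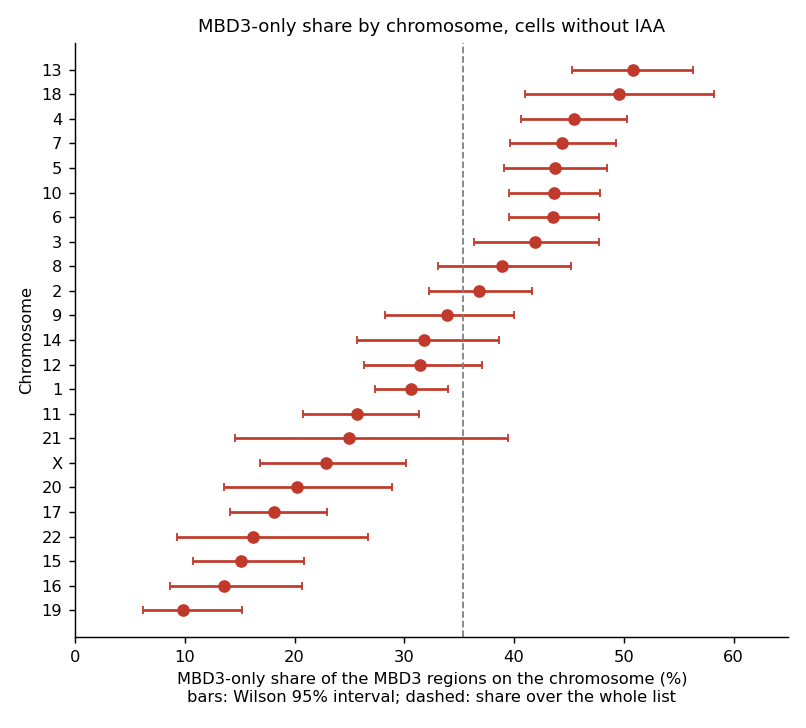
MBD3-only share of the MBD3 regions on each chromosome in cells without IAA (horizontal axis, percent), with Wilson 95% intervals as bars and the share over the whole list, 35.3%, as a dashed line. Chromosome 13, at 50.8%, is at the top and chromosome 19, at 9.83%, at the bottom.

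The order of the chromosomes went with MBD3 at CTCF, which is in large part built in. The MBD3-only class and MBD3 at CTCF exclude each other and make up 35.3% and 56.4% of the MBD3 list. A higher share of 1 class thus leaves less room for the other. The share of MBD3 regions at CTCF was 35.7% on chromosome 13 and 86.7% on chromosome 19. Among MBD3 regions away from CTCF, by contrast, the MBD3-only share was 79.0% of 200 (72.8% to 84.1%) for chromosome 13 and 73.9% of 23 (53.5% to 87.5%) for chromosome 19, with overlapping intervals. It was 80.5% on chromosome 18, 94.4% on chromosome 16 and 69.0% on chromosome 15. Other pairs did not overlap, such as chromosome 12 at 90.9% (83.6% to 95.1%) and chromosome 9 at 74.8% (66.0% to 81.9%). Chromosomes with more CTCF regions per 10 Mb had lower MBD3-only shares, with a Pearson r of −0.612 and a Spearman rho of −0.603 over 23 chromosomes. Without chromosomes 17 and 19, r was −0.475 and rho −0.497. These are descriptions over chromosomes that share the same libraries, and the CTCF list is part of the rule that chose the regions.

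MBD3-only regions touch no CTCF region by the rule, and their distances to CTCF were not set against those of random positions. From their summits, the nearest CTCF summit was a median of 21277 bp away (quartiles 7918 and 47693.5), and the range ran from 132 to 557819 bp. The median was 19509 bp for MBD3 regions with TET1, TET2 or both but not CTCF, 13816 bp for TET1-only regions and 12919 bp for TET2-only regions. A CTCF summit lay within 1 kb of 4.11% of MBD3-only regions (3.38% to 4.99%), against 5.49% (3.88% to 7.74%) of MBD3 regions with TET1, TET2 or both but not CTCF, 11.7% (9.83% to 13.9%) of TET1-only regions and 13.3% (10.6% to 16.6%) of TET2-only regions. Within 10 kb the shares were 30.2%, 31.5%, 42.1% and 43.7% in that order, and within 100 kb 92.2%, 88.8%, 93.9% and 96.0%. CTCF regions themselves were 15142 bp from their nearest neighbour in the median.

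**Figure D4:**
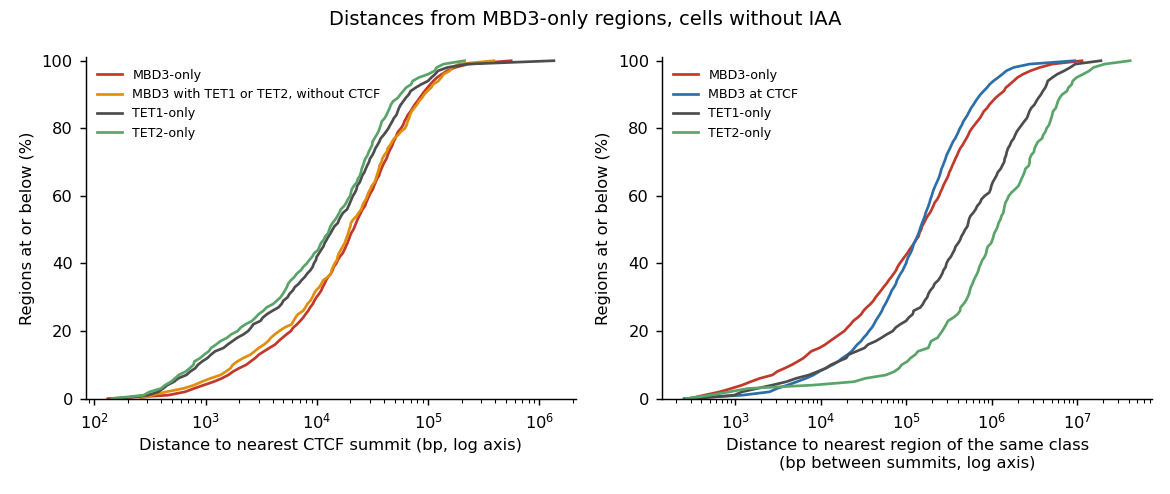
Percent of regions without IAA at or below a given distance (log axis, bp), on the left to the nearest CTCF summit and on the right to the nearest region of the same class. On the left MBD3-only regions (red, median 21277 bp) run to the right of TET1-only (grey) and TET2-only (green) regions, and on the right their curve lies above that of MBD3 at CTCF (blue) at distances of 10 kb and below.

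Fold and distance from CTCF were related in one view and not in the other. In the weakest, middle and strongest of the 3 groups by fold the nearest CTCF summit was a median of 18660, 22046 and 23527 bp away. By distance there was no steady order of fold: the 96 MBD3-only regions under 1 kb from a CTCF summit had a median fold of 4.91, the 609 at 1 to 10 kb 4.71, the 1449 at 10 to 100 kb 4.99 and the 181 at 100 kb or more 4.74. The nearest CTCF region was weaker than usual at all 4 distances, and weakest where it was close. Its median fold in the CTCF list was 7.59, 10.1, 12.1 and 11.01 in the same order, against 13.6 over all CTCF regions. The rule leaves out MBD3 regions that touch CTCF, which bears on which CTCF regions can lie close. TET1 was farther than CTCF, at a median of 46706 bp, and TET2 at 472923 bp. The longer distances go with shorter lists, of 42925 CTCF, 16246 TET1 and 1326 TET2 regions without IAA. A TET1 summit lay within 1 kb of 3.25% of MBD3-only regions and a TET2 summit within 1 kb of 1.33%.

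Values at the edge of the rule show how fine it was. The MBD3-only regions with the shortest gap to another list were chr9:84011711-84011885, 0 bp from a TET2 region, chr7:106209210-106209501, 1 bp from a CTCF region, and chr4:81256694-81256868, 3 bp from one. Their folds were 6.65, 3.93 and 3.87. On the other side, the MBD3 regions with the fewest shared bases were chr3:64134689-64134890, with 6 bp of TET1, chr4:170948802-170948958, with 6 bp of TET2, and chr10:70883604-70883784, with 9 bp of CTCF. Their folds were 5.25, 3.998 and 4.71. The regions farthest from CTCF were chr2:145952307-145952510, 557819 bp from a CTCF summit and at 5.05-fold, chr7:61969244-61969409, 506924 bp away, and chr14:63129939-63130087, 376689 bp away.

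With IAA, none of the MBD3-only regions was called again with MBD3. Of the 2335, 0 shared a base with the 50 MBD3 regions with IAA, which allows a share of up to 0.128% by a count of 3 (Wilson upper bound 0.164%). Over all MBD3 regions 0.182% were called again and 99.8% were not, so near-complete absence was general. The other MBD3 regions were called again in 12 of 4273 cases, or 0.281% (0.161% to 0.490%). The difference, MBD3-only minus the others, was −0.281 percentage points (Newcombe 95% interval −0.490 to −0.0774), an interval that covers counting error over regions only. Against MBD3 at CTCF alone, with 5 of 3727 called again, it was −0.134 (−0.314 to 0.0472), which includes 0. Against MBD3 with TET1, TET2 or both but not CTCF, with 7 of 546, it was −1.28 (−2.62 to −0.602), and all 7 were among the 121 with both TET1 and TET2, with 0 of 280 for TET1 alone and 0 of 145 for TET2 alone.

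That difference rested on a small class of regions that the rule leaves out. All 12 MBD3 regions called again had been called with both TET1 and TET2 without IAA, 4.86% (2.80% to 8.30%) of the 247 such regions. Of the other 4026 MBD3 regions outside the MBD3-only class, 0 were called again, the same count as among MBD3-only regions. The interval of the difference also included 0 when each list was limited to a −log10 q of at least 5. There it was −0.373 (−0.685 to 0.162), with 0 of 754 against 10 of 2681. A fold of at least 5 removed all 12 regions called again, so its difference of 0 was fixed in advance and decides nothing. With single rows in place of joined regions the difference was −0.595 (0 of 2369 against 26 of 4367). The 12 regions called again had −log10 q of 9.58 to 248, the last being the highest of the MBD3 list without IAA. They lay on the mitochondrial genome in 3 cases and otherwise on chromosomes 1, 2, 9, 10 and 19, each with a fold under 3. Some were close neighbours: chr2:92316215-92316680, chr2:92318828-92319132 and chr2:92320349-92320726, and also chr10:42398542-42398823 and chr10:42400209-42400706. The intervals count such neighbours as separate regions, so they can be too narrow. Of the 13 MBD3-only regions with a fold under 3, 0 were called again, against 12 of the 75 others, a difference of −16.0 percentage points with an interval of −25.9 to 7.75 that includes 0. Seen from the list with IAA, 12 of its 50 regions touched an MBD3 region of cells without IAA, 38 touched none, and 4 had an MBD3-only summit within 10 kb.

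The other lists with IAA touched MBD3-only regions almost as rarely. With CTCF it was 1 of 2335 (0.0428%, 0.00756% to 0.242%), against 34 of 4273 other MBD3 regions, with 0.53% over all MBD3 regions. With TET1 it was 0 of 2335, against 21 of 4273 and 0.318% over all. With TET2 it was 2 of 2335 (0.0857%, 0.0235% to 0.312%), against 12 of 4273 and 0.212% over all. Since the rule leaves out regions called with these proteins without IAA, and 33 of the 34 CTCF cases were at CTCF, the counts of the other MBD3 regions are not independent of the rule. Against MBD3 with TET1, TET2 or both but not CTCF, the difference for CTCF was −0.140 percentage points (−0.988 to 0.1097), which includes 0. For TET2 it was −0.281 (−1.24 to 0.0683), which includes 0 as well, and for TET1 −0.916 (−2.13 to −0.367), which does not. Against all other MBD3 regions the difference for TET2, −0.195 (−0.414 to 0.0609), included 0, and those for CTCF and TET1 did not.

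Taking the 4 lists with IAA as 1, 3 MBD3-only regions shared a base with a region, or 0.128% (0.0437% to 0.377%), against 59 of the other 4273, or 1.38% (1.07% to 1.78%), with 0.938% over all MBD3 regions. The difference was −1.25 percentage points (−1.66 to −0.856), and −0.865 (−1.23 to −0.503) when regions with both TET1 and TET2 were left out of the others. All 40 cases that remained then were at CTCF, 38 with TET1 and 2 without TET1 and TET2, which the rule leaves out. MBD3 regions away from CTCF had 0 of 280 with TET1 alone and 0 of 145 with TET2 alone. At a fold of at least 5 in every list the difference was −0.607. The 3 regions were chr1:31904699-31904919, chr4:190381933-190382337 and chr7:61969244-61969409. The first, at 2.18-fold for MBD3, met a TET2 region with IAA at 3.59-fold, which ranked 2807 of 3022 in that list. The second, at 5.71-fold, met a TET2 region at 6.53-fold and rank 441. The third had the lowest fold of the whole MBD3 list, at 1.14, and met the CTCF region of lowest fold with IAA, at 1.19. A TET2 summit with IAA was within 10 kb of 34 MBD3-only regions, or 1.46% (1.04% to 2.03%), against 3.39% (2.89% to 3.98%) of the other MBD3 regions.

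TET1-only and TET2-only regions, which stand to their own lists as MBD3-only regions stand to the MBD3 list, were also seldom called again. Of 965 TET1-only regions 0 were called again with TET1 with IAA, and of 503 TET2-only regions 2 were with TET2, or 0.398% (0.109% to 1.44%). Over all regions of those lists the shares were 0.222% for TET1 and 0.452% for TET2. No difference from MBD3-only regions was tested, since the lists with IAA held 325 TET1 and 3022 TET2 regions against 50 for MBD3.

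**Figure D5:**
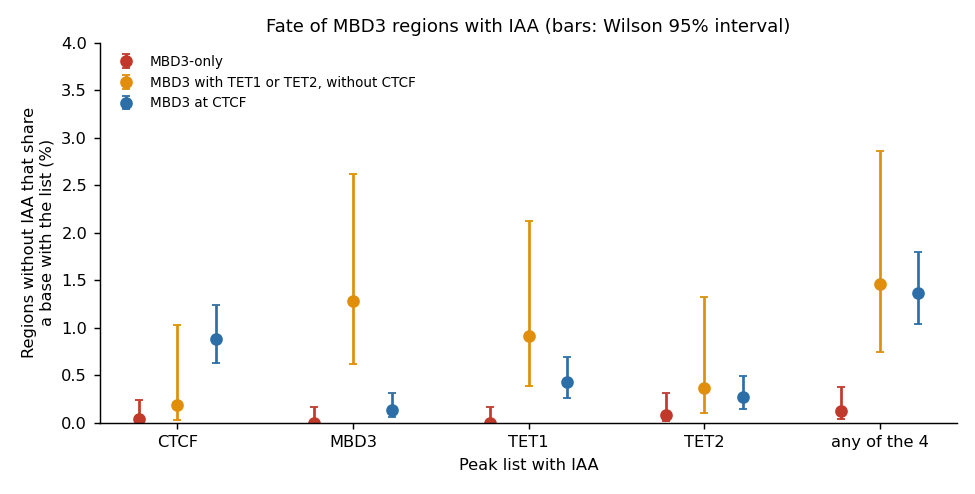
Percent of MBD3 regions without IAA that shared a base with each peak list with IAA (horizontal axis: CTCF, MBD3, TET1, TET2 or any of the 4), for MBD3-only regions (red), MBD3 regions with TET1 or TET2 but not CTCF (orange) and MBD3 regions at CTCF (blue), with Wilson 95% intervals. MBD3-only regions are at 0 for MBD3 and TET1 and at 0.128% for any list.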

How the data were processed

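The 8 peak lists were deposited by the authors, 1 per antibody and condition, each called on the 3 samples together per the labels and list names. MACS2 2.1.2, bedtools 2.25.0, SAMtools 1.9, Bowtie2 2.3.4 and FastQC 0.11.7 and the build hg19 come from the submitters' processing notes, without the role of each. No source used here gives the control. The deposited fold is a ratio, the deposited −log10 q and score come from the peak caller, and q was at most 0.05 in every list. These values are the authors' and were used only within 1 list.

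Rows sharing 1 bp were joined, keeping the highest fold and −log10 q and the summit of the most confident row. Regions were compared with Python 3.11.15, pandas 2.3.3 and scipy 1.17.1, and the steps were tested on simulated data. Shares carry Wilson 95% intervals and differences Newcombe intervals, counting error only. Named regions were, on chromosomes 1 to 22 and X, the 5 highest by fold and by −log10 q, the 3 widest, those met by a list with IAA, the 3 nearest to and 3 just over the limit of 1 shared base, the 3 farthest from CTCF and the 3 windows of 1 Mb with most members. The next 2 windows and the longest runs were added after their values were seen. The members and comparisons were chosen with earlier results of these data known. Sequences and gene annotation were not used here, because no hg19 genome was given. Widths, fold steps and the lists' length depend on read depth, which is unknown.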

Additional observations from a re-analysis of the deposited data

How the results depend on the processing

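The number of MBD3-only regions was 2335, and 2145 to 2751 with other overlap rules, single rows or chromosomes 1 to 22 and X. It was 754 at −log10 q of at least 5 in every list and 1337 at a fold of at least 5. Both filters were applied to every list before the rule, so MBD3 regions whose CTCF, TET1 or TET2 region was filtered out could enter. Of the 2335 themselves, 567 had a −log10 q of at least 5, so the 754 are not simply their stronger part. Under these same 2 filters the median fold was 6.63 and 5.74, the median width 234 and 217 bp, the distance to CTCF 25482.5 and 29064 bp, and the share with another within 10 kb 7.16% and 11.2%. The second filter takes out every fold under 5, so its higher median fold was fixed in advance. The first also takes out weak regions, and width went with fold. The fold filter put 61.3% of MBD3-only regions on the 8 chromosomes. With 50% of both regions shared the distance to CTCF was 17655 bp. With a gap of under 1 kb counted as shared it was 23024 bp, and 13.8% had another within 10 kb. With single rows 17.8% did. Counted within 100 kb in place of 10 kb, 42.7% of the joined regions had another. A fold of at least 5 removed all 12 MBD3 regions called again, so the difference of 0 there was fixed in advance. The difference in MBD3 regions called again was no longer clear of 0 at −log10 q of at least 5 (−0.373 percentage points), for folds under 3 alone (−16.0) and against MBD3 at CTCF alone (−0.134). The last 2 were chosen after seeing the data, as were the comparison with MBD3 with TET1, TET2 or both but not CTCF, which kept its direction and side, and leaving out the densest 1 Mb window, which gave 14.9% with another within 10 kb. With equal numbers of regions by −log10 q, no MBD3-only region was among the 50, so no value could be had. Every other setting kept direction and side, but single rows gave −0.595 for MBD3 called again, and a fold of at least 5 gave −0.607 for any list. The sequence and annotation alternatives were not run, without an hg19 genome. No paired analysis was possible because the authors pooled the 3 samples of each group; for the same reason no sample could be left out. A filter leaves fewer regions and changes which ones meet the rule, and the cause of each change was not tested. Read depth, which is unknown, limits how many weak regions any list can hold.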
